A study of Mus musculus with 20 samples.

Results

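Map1b, Nefl, Nefh and Myo5a are 4 neuronal genes whose products build or move along the axonal cytoskeleton, and their edited sites were followed in cerebellum, hippocampus and cortex of the mouse. The genes were chosen by their site numbers and editing levels in these same lists, so both are given below as a description and no test is attached to them. Every listed site with 1 of the 4 symbols was taken. Together they held 205 of the 25978 sites in any list, in 4 of 3731 genes. Of these member sites 173 were listed in cerebellum, 126 in hippocampus and 144 in cortex.

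The mice carried a transgene, inducible by tamoxifen, for APOBEC1-YTH, in which the cytidine deaminase APOBEC1 is joined to the YTH domain that binds N6-methyladenosine (m6A). Mice expressing APOBEC1-YTHmut supplied the background of C-to-U changes when sites were called. Animals of both genotypes were injected intraperitoneally with 20 mg/kg tamoxifen at intervals of 24 h for 5 days, and tissue was collected 7 days after the final injection. Bulk poly(A) RNA libraries numbered 4 APOBEC1-YTH and 3 APOBEC1-YTHmut for cerebellum, 4 and 2 for hippocampus, and 4 and 3 for cortex. The same 4 APOBEC1-YTH numbers recur in the sample titles of each region. Nothing in the sources used here names the promoter driving the transgene, the cells that expressed it or the age of the mice.

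A single list with 1 editing level per site, in percent of reads read as edited, stood for all libraries of a region. Levels therefore have no replicate error, the depth behind each one is unknown, and no difference between regions could be tested. The lists did separate the dissected tissues by where marker genes had sites. Of 14 cerebellar markers looked for, 7 had sites in cerebellum, 3 in hippocampus and 4 in cortex, with 189, 5 and 11 sites. Cortical markers had 0 sites in cerebellum, 8 in hippocampus and 42 in cortex, and hippocampal markers had 1, 45 and 13. Astrocyte markers had 143, 130 and 107 sites and oligodendrocyte markers 19, 26 and 26, and their part in the results on the 4 genes was not tested.

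m6A is placed on messenger RNA by the METTL3 and METTL14 methyltransferase at adenosines within the motif known as DRACH (A, G or U, then A or G, then the methylated A, then C, then A, C or U), and it is found mostly near stop codons and in 3′ untranslated regions. In neurons it takes part in the decay, transport and local translation of messenger RNAs. Neurofilaments are the intermediate filaments of axons, built from the light chain encoded by Nefl, the medium chain encoded by Nefm, the heavy chain encoded by Nefh and alpha-internexin encoded by Ina. Map1b encodes a large microtubule-associated protein of growing axons, which is cut into a heavy and a light chain. Myo5a encodes myosin Va, an actin motor that carries cargo such as endoplasmic reticulum into the spines of mouse Purkinje cells and whose loss lightens the coat of dilute mice.

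To see what a listed position is, the RefSeq windows around gene starts and miRNA hairpins (GRCm38.p6, the assembly of mm10) were searched for sites. They covered 62 sites in 33 genes and 0 sites of Map1b, Nefl, Nefh or Myo5a. At 62 of 62 the listed base on the listed strand was C, at 62 of 62 the base before it was A, and at 62 of 62 the base before that was A or G. Among all C in the promoter windows, counted on both strands, 9.14% follow AA or GA. The full DRACH motif was present at 48 of the 62 sites (77.4%), against 6.65% of the C in those windows. These 2 shares are not like for like, since each of the 62 sites follows AA or GA. In the promoter windows 481046 C follow AA or GA, and 347962 are the C of DRACH. Most C after AA or GA there thus hold the full motif. Whether the calling required the A is not known, and no enrichment is read from these shares. The 3 covered genes with the highest levels in any region, leaving out predicted and clone-named genes, are shown to make the reading visible, 5′ to 3′ on the strand of the site, with the listed C and the 2 bases before it in capitals. Prmt8 was edited at 48.8% in cortex and not listed elsewhere (chr6:127769385-127769405, minus strand). Sdf4 was edited at 5.68% in cerebellum, 16.0% in hippocampus and 16.3% in cortex (chr4:156013519-156013539, plus strand), and Dnajc30 at 14.7% in hippocampus and 8.06% in cortex (chr5:135064983-135065003, plus strand).
Prmt8: gcctcgtgGACgcctgcttcc
Sdf4: gctcttctGACttccctgggc
Dnajc30: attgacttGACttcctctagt

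In each example the edited C directly follows an adenosine. The Sdf4 and Dnajc30 windows hold the full DRACH motif there, and the Prmt8 window, with G after the C, does not. Whether the listed C follows an adenosine at each site of the 4 genes was not analysed here, since no sequence of their 3′ regions was used.

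By RefSeq (GRCm38.p6), Nefl spans 68083863 to 68089095 on chromosome 14 (plus strand) and Nefh 4938754 to 4948064 on chromosome 11 (minus strand). Map1b spans 99421464 to 99516602 on chromosome 13 (minus strand) and Myo5a 75069799 to 75223688 on chromosome 9 (plus strand). Each of the 205 sites lay inside its gene and on its strand, and whether it is in coding sequence, an intron or an untranslated region was not analysed here.

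The first question was how many sites each transcript carried. Map1b had 72 sites in cerebellum, 55 in hippocampus and 59 in cortex, and ranked 1st of 2228, 7th of 2547 and 8th of 3163 listed genes. Myo5a had 55, 47 and 61 sites and ranked 10th, 13th and 6th. Nefl had 29, 19 and 16 sites (ranks 46, 146 and 242), and Nefh had 17, 5 and 8 (ranks 136, 673 and 595). The median listed gene had 2 sites in cerebellum, 2 in hippocampus and 3 in cortex, so each of the 4 genes lay above it in every list.

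**Figure D1:**
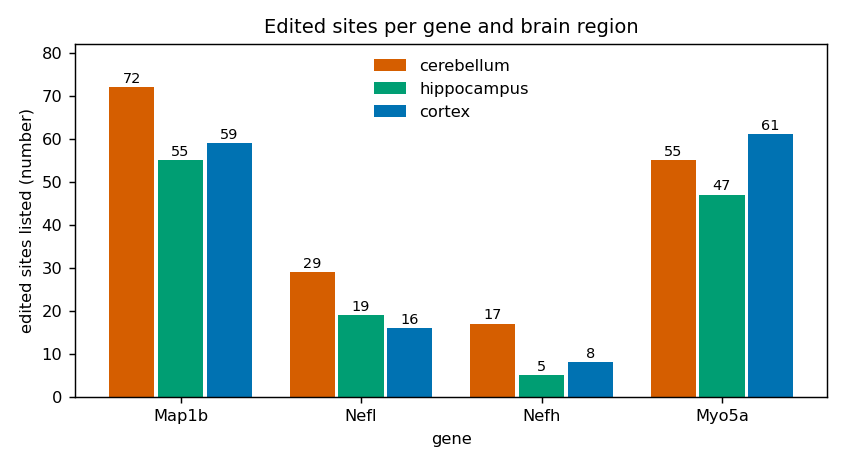
Number of edited sites listed for each gene (horizontal axis) in cerebellum, hippocampus and cortex, 1 bar per pooled list with no replicate error. Nefl and Nefh have their most sites in cerebellum, with 29 and 17, while Myo5a has its most in cortex, with 61.

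The cerebellar list was the shortest of the lists and held 0.637 times as many sites as the cortical list over all genes. For Nefh the cerebellar number was 2.13 times the cortical one, for Nefl 1.81 times, for Map1b 1.22 times and for Myo5a 0.902 times. Set against hippocampus, cerebellum had 3.40 times as many Nefh sites, 1.53 times as many Nefl sites, 1.31 times as many Map1b sites and 1.17 times as many Myo5a sites, against 0.846 times over all genes. Between hippocampus and cortex the ratios were 0.625 for Nefh, 1.19 for Nefl, 0.932 for Map1b and 0.770 for Myo5a, against 0.753 over all genes. Expression was not measured in these lists, and a longer or more abundant transcript can carry more listed sites.

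The same nucleotide recurred between regions more often in these genes than over all sites. All 3 lists held 96 of the 205 member sites (46.8%), against 19.0% of all sites. By gene these were 44 of 83 for Map1b (53.0%), 13 of 30 for Nefl (43.3%), 5 of 17 for Nefh (29.4%) and 34 of 75 for Myo5a (45.3%). The share is a description, since the genes were chosen partly for having many sites.

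Sites of the neurofilament genes outside cerebellum were almost wholly a subset of the cerebellar ones. Of the 5 hippocampal Nefh sites 5 were listed in cerebellum, and so were 8 of the 8 cortical ones. The 19 hippocampal Nefl sites were listed in cerebellum at 19 positions, and the 16 cortical ones at 15. Over all genes, cerebellum listed 42.3% of hippocampal and 37.1% of cortical sites. For Map1b these shares were 85.5% and 91.5%, and for Myo5a 85.1% and 68.9%.

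Sites listed in a single region differed in number by gene. Cerebellum alone listed 15 Map1b sites, 8 Nefl sites, 9 Nefh sites and 7 Myo5a sites. Hippocampus alone listed 6 Map1b, 0 Nefl, 0 Nefh and 1 Myo5a sites, and cortex alone 3, 1, 0 and 13 in that order of genes. Of the 205 member sites these were 19.0% for cerebellum alone, 3.41% for hippocampus alone and 8.29% for cortex alone, against 15.5%, 12.8% and 26.2% of all sites. Levels at such sites were lower than at sites listed everywhere: the 39 sites of cerebellum alone had a median of 1.94%, against 5.38% in cerebellum for the 96 sites listed everywhere. For cortex alone the 17 sites had a median of 1.60%, against 3.46% in cortex for the sites listed everywhere. Over all genes the medians were 2.885% for cerebellum alone against 3.99% in cerebellum for sites listed everywhere, and 2.46% for cortex alone against 4% in cortex. No listed value lay below 1%, so absence from a list sets no limit of 0 on editing there.

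Nefh had the largest median log2 ratio of cerebellum over cortex among the 4 genes. Its 17 sites lay within 499 nt on chromosome 11 (4938832 to 4939330, mm10, minus strand), between 576 and 78 nt before the annotated 3′ end of the gene. The highest site, at position 4939000, was edited at 21.1% in cerebellum, 4.55% in hippocampus and 4.76% in cortex. Its neighbour 4 nt downstream, at 4938996, had 17.3%, 6.74% and 12.5%. The cortical levels of these adjoining sites lay farther apart than their cerebellar levels. Position 4939091 was edited at 10.9% in cerebellum and 3.33% in cortex, without being listed in hippocampus.

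At the remaining shared Nefh sites cerebellum was again the highest region, while hippocampus and cortex differed in their order. Position 4939075 had 9.54% in cerebellum, 4.48% in hippocampus and 2.90% in cortex, and position 4939061 had 8.56%, 4.35% and 2.94%. At 4939047 the level was 9.26% in cerebellum and 2.99% in cortex, and at 4938989 it was 7.04% and 2.86%. Position 4939237, the site of smallest difference in percentage points, still had 5.19% in cerebellum, 3.30% in hippocampus and 3.33% in cortex. Cerebellum was thus the higher region at each of the 8 sites it shared with cortex and each of the 5 it shared with hippocampus.

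Averaged over the shared sites, Nefh was edited at 11.1% in cerebellum and 4.45% in cortex, and at 12.3% in cerebellum and 4.68% in hippocampus. The median log2 ratio was 1.59 for cerebellum over cortex, from 0.47 to 2.15 over the sites. At 6 of the 8 sites the cerebellar level was at least 2-fold higher, and at 0 sites at least 2-fold lower. Over all genes these shares were 15.1% and 12% of the sites shared with cortex. The 9 sites of cerebellum alone ranged from 1.04 to 5.00% with a median of 2.08%. The lowest Nefh level listed was 1.04% in cerebellum, 3.30% in hippocampus and 2.86% in cortex, so no Nefh site between 1 and 2% was listed outside cerebellum, and the part of depth in this was not tested.

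Nefl followed the same direction at most sites. Its 30 sites filled 1454 nt of chromosome 14 (68087461 to 68088914, plus strand), from 1634 to 181 nt before the 3′ end, with no gap over 200 nt. A single site stood above the others in every region: position 68087572 was edited at 28.2% in cerebellum, 12.8% in hippocampus and 17.5% in cortex. The next highest cerebellar levels were 10.4% at 68088810, 9.48% at 68087941 and 8.60% at 68088577. Hippocampal levels at these positions were 2.81%, 1.08% and 4.05%, and cortical levels 3.24%, 2.14% and 3.32%.

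Cerebellum was higher at 13 of the 15 Nefl sites shared with cortex and at 17 of the 19 shared with hippocampus. The exceptions against cortex were position 68088131, with 2.63% in cerebellum and 3.11% in cortex, and position 68088790, with 2.97% and 3.33%. Mean levels over the shared sites were 6.63% in cerebellum and 3.46% in cortex, and 5.85% in cerebellum and 2.75% in hippocampus. The median log2 ratios were 1.29 and 1.08, and the cerebellar level was at least 2-fold higher at 9 of 15 and 11 of 19 sites. The 2-fold higher shares over all genes were 15.1% and 15.2% of shared sites. Position 68087941 differed most from hippocampus on the log2 scale, by 3.13. In hippocampus 11 of the 19 Nefl sites (57.9%) had levels under 2%, near the lowest value listed. In cerebellum 6 of 29 (20.7%) and in cortex 5 of 16 (31.3%) had such levels. Over all genes the shares under 2% were 30.5% in hippocampus, 22.0% in cerebellum and 28.7% in cortex.

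Map1b carried its sites over a longer stretch. They ran from 14124 to 37 nt before the 3′ end on chromosome 13 (99421501 to 99435588, minus strand), and 76 of 83 lay within 5 kb of it. The 7 farther sites were weak, at 3.55% or less in each region. The strongest Map1b site, position 99424379, was edited at 23.7% in cerebellum, 14.5% in hippocampus and 25.4% in cortex, so cerebellum was slightly below cortex there. Position 99422059, close to the 3′ end, was nearly level at 14.7%, 13.9% and 13.6%.

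The 2 Map1b sites with the largest differences between cerebellum and cortex in percentage points, 99425548 and 99425514, lay in a group 4347 to 4050 nt before the 3′ end. This group of 11 sites, bounded by gaps over 200 nt, averaged 8.72% in cerebellum and 4.68% in cortex at the 9 sites shared by both. Position 99425548 had 13.5% in cerebellum, 4.55% in hippocampus and 3.82% in cortex, and position 99425514 had 12.3%, 4.24% and 3.75%. Position 99425612 had 13.1%, 7.19% and 7.23%. By contrast 99425728, in the same group, had 12.1%, 8.17% and 11.6%. The listed ratios thus differed between neighbouring sites of 1 transcript, and the part of read depth in this was not tested.

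Taken over the gene, Map1b was higher in cerebellum at 46 of 54 sites shared with cortex, with means of 5.70% in cerebellum and 3.89% in cortex. Against hippocampus it was higher at 39 of 47 sites, with means of 6.16% and 3.75%. The median log2 ratios were 0.58 and 0.57. A 2-fold higher cerebellar level was reached at 12 of 54 and 15 of 47 sites, and a 2-fold lower one at 1 and 0 sites. Over all genes the 2-fold higher shares were 15.1% and 15.2% of shared sites, and the 2-fold lower ones 12% and 11.4%. The site lowest in cerebellum relative to cortex was 99421956, with 1.79% in cerebellum, 3.09% in hippocampus and 4.09% in cortex. In the last 58 nt of the gene, where 6 sites lay, cerebellum was higher than cortex at 1 of 3 shared sites. The mean over these 3 sites was still higher in cerebellum, at 2.28% against 1.75% in cortex. These levels lie near the lowest value listed, so no direction is read for this part of the gene.

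Sites of Myo5a went in both directions. Its 75 sites lay between 10667 and 116 nt before the 3′ end on chromosome 9 (75213021 to 75223572, plus strand). Among them, 41 formed a dense block 5796 to 3990 nt before the end, and 23 formed a second one over the last 1433 nt. The first block held the strong sites: its median level was 6.78% in cerebellum, 5.65% in hippocampus and 5.23% in cortex, against 2.995%, 2.61% and 1.88% in the second.

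Single sites differed in their order of regions within a short stretch. Position 75218011 was edited at 24.4% in cerebellum, 7.59% in hippocampus and 9.65% in cortex. Position 75218373 was edited at 13.1%, 20.4% and 18.5%, so cerebellum was the lowest region there. Position 75218919 was level, at 20.4%, 19.2% and 19.2%. Close to the first of these, 75218198 had 8.33% in cerebellum, 8.65% in hippocampus and 13.3% in cortex.

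Between hippocampus and cortex, too, Myo5a sites differed in both directions. Position 75218170 had 15.5% in hippocampus and 7.73% in cortex, while 75218295 had 3.6% and 9.51%. In all, cerebellum was higher at 28 of 42 Myo5a sites shared with cortex (means 7.05% and 5.93%) and at 27 of 40 shared with hippocampus (6.92% and 5.78%). The median log2 ratios were 0.33 and 0.46, with ranges over sites of -1.39 to 2.67 and -1.84 to 1.68. A 2-fold difference from cortex was reached at 12 of the 42 sites, 10 of them higher and 2 lower in cerebellum. Over all genes 15.1% of the sites shared with cortex were at least 2-fold higher in cerebellum and 12% at least 2-fold lower. Against hippocampus 6 of the 40 Myo5a sites were at least 2-fold higher and 2 at least 2-fold lower. The shares over all genes there were 15.2% and 11.4%. The stretch from 3469 to 2623 nt before the end, with 7 sites, had no hippocampal site in the list, although 5 of its sites were listed in cerebellum and 6 in cortex.

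**Figure D2:**
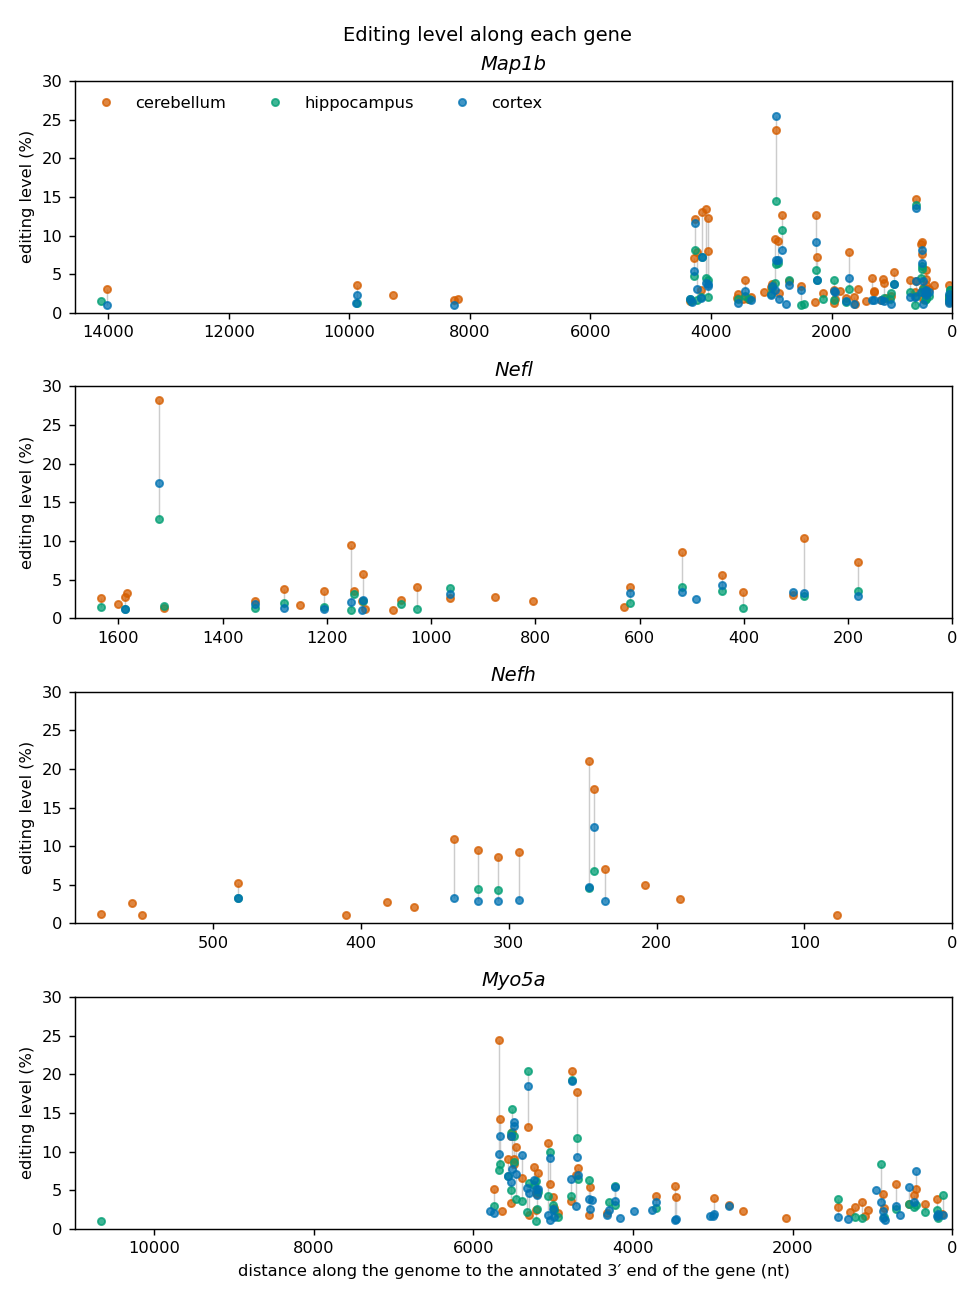
Editing level in percent (vertical axis) against the distance along the genome to the annotated 3′ end of the gene in nt (horizontal axis, 3′ end at the right, a scale of its own for each gene). Points are listed sites in cerebellum, hippocampus and cortex, and grey lines join the regions at a site; the Nefh sites fill 499 nt and those of Map1b reach back 14124 nt.

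The levels were then set against those of all genes. Of all 6627 sites shared by cerebellum and cortex, 52.6% were higher in cerebellum, 15.1% were at least 2-fold higher and 12% at least 2-fold lower. Among the 119 shared sites of the 4 genes, 95 (79.8%) were higher in cerebellum, 37 were at least 2-fold higher and 3 at least 2-fold lower. The median log2 ratio was 0.60 over these 119 sites and 0.06 over all sites. Because the genes were chosen on levels in these lists, nothing is read from the difference between these shares. The median level over the whole list was 3.36% in cerebellum and 2.91% in cortex, and dividing each level by it gave 100% of Nefh sites higher in cerebellum, 86.7% of Nefl, 72.2% of Map1b and 54.8% of Myo5a sites. In bulk tissue a different mixture of cells and a different level of editing per cell cannot be told apart.

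Ranked by the median log2 ratio of cerebellum over cortex among the 404 genes with 5 or more shared sites, Nefh was 4th, Nefl 11th, Map1b 74th and Myo5a 134th. The median of all these gene medians was 0.09. Within a gene the SD of the log2 ratio over sites was 0.57 for Nefh, 0.71 for Nefl, 0.63 for Map1b and 0.91 for Myo5a, against 0.94 over all shared sites. No difference between the medians of 2 genes was tested, since sites of a gene are not replicates.

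**Figure D3:**
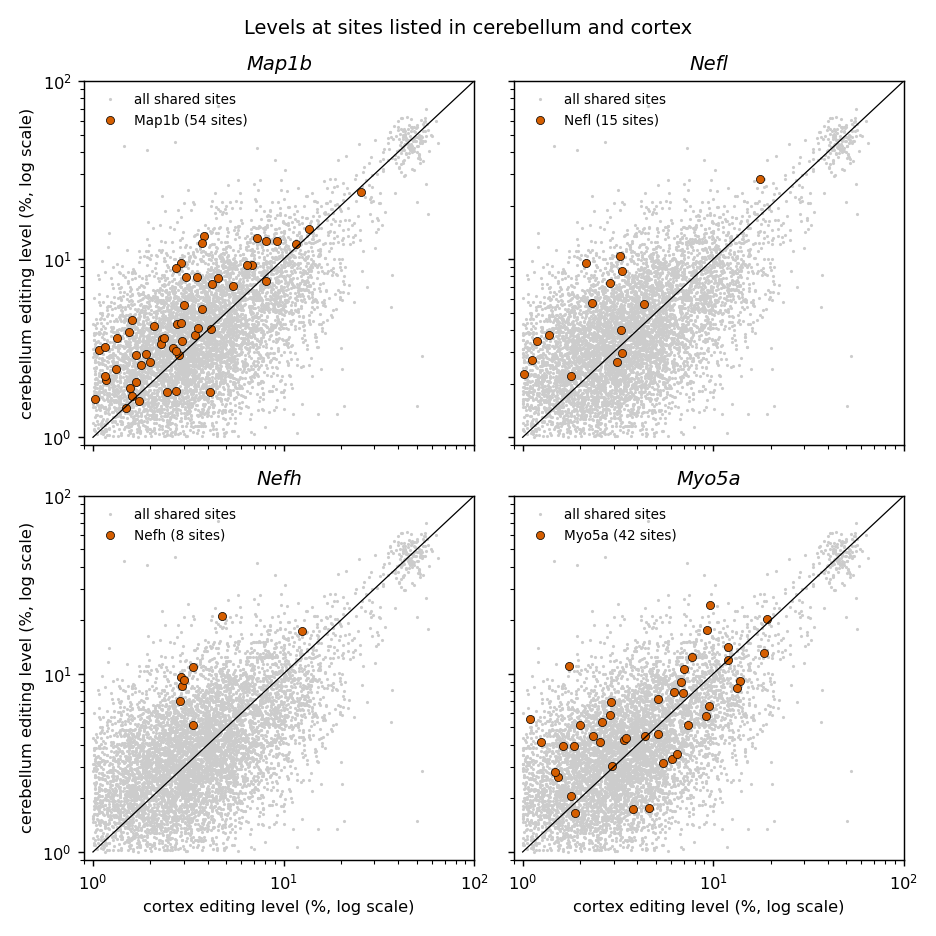
Cerebellar (vertical) against cortical (horizontal) editing level in percent, both on log axes, at sites listed in both regions. Each panel marks the sites of 1 gene over all 6627 shared sites in grey, and the line marks equal levels: the 8 Nefh sites lie above it, while 14 of the 42 Myo5a sites lie below.

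Hippocampus and cortex were much closer to each other. Of 9379 sites shared over all genes, 48.4% were higher in hippocampus, 7.37% were at least 2-fold higher and 8.17% at least 2-fold lower. Hippocampus was higher at 2 of 5 Nefh sites, 6 of 13 Nefl sites, 19 of 46 Map1b sites and 20 of 40 Myo5a sites, with median log2 ratios of -0.01, -0.05, -0.05 and -0.05. With levels divided by the list medians, 2.82% in hippocampus and 2.91% in cortex, the share of Nefh sites higher in hippocampus turned to 60%, against 40% as deposited. At least 2-fold higher were 6 of the 104 sites and at least 2-fold lower 4. The largest single difference was at the strongest Map1b site, which was 10.9 percentage points lower in hippocampus.

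Cerebellum and hippocampus were compared in the same way. Of 5688 shared sites in all genes, 51.9% were higher in cerebellum, 15.2% at least 2-fold higher and 11.4% at least 2-fold lower. For the 4 genes, 88 of 111 sites were higher in cerebellum, 35 at least 2-fold higher and 2 at least 2-fold lower, and those 2 were in Myo5a. In the ranking of 338 genes Nefh was 16th, Nefl 17th, Map1b 59th and Myo5a 76th. This comparison uses the cerebellar list again, so its direction is not a second observation independent of the one against cortex.

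**Figure D4:**
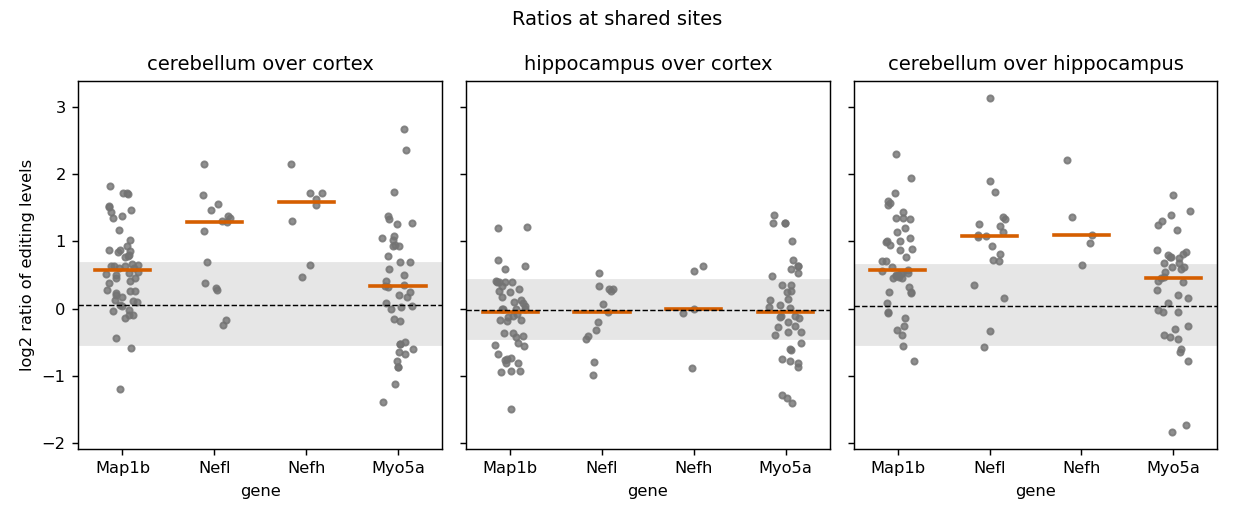
Log2 ratio of editing levels (vertical axis) at shared sites of each gene (horizontal axis) for cerebellum over cortex, hippocampus over cortex and cerebellum over hippocampus. Points are sites, thick lines are gene medians, and the dashed line and grey band are the median and the interquartile range over all shared sites of the pair; gene medians lie at 1.59 for Nefh and 0.33 for Myo5a in the first panel and between -0.05 and -0.01 in the second.

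The order of sites within a gene was compared between regions. Spearman's rho of cerebellar against cortical levels was 0.77 over 54 Map1b sites, 0.66 over 42 Myo5a sites, 0.61 over 8 Nefh sites and 0.54 over 15 Nefl sites, against 0.55 over all 6627 sites. Hippocampal against cortical levels gave 0.76 over 46 Map1b sites, 0.78 over 13 Nefl sites and 0.71 over 40 Myo5a sites, against 0.71 over all 9379 sites. Cerebellar against hippocampal levels gave 0.71 over 47 Map1b sites, 0.73 over 40 Myo5a sites and 0.41 over 19 Nefl sites, against 0.57 over all 5688 sites. These are correlations across sites of the same transcripts and libraries, and sites are not independent replicates.

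Strong sites were a minority in each gene. Levels of 10% or more were reached in cerebellum by 8 Map1b, 2 Nefl, 3 Nefh and 9 Myo5a sites, in hippocampus by 3, 1, 0 and 7, and in cortex by 3, 1, 1 and 6. That made 22 of 173 member sites in cerebellum (12.7%), 11 of 126 in hippocampus (8.73%) and 11 of 144 in cortex (7.64%), against 8.99%, 6.14% and 6.54% over all sites. Median levels were 5.00%, 4.48% and 3.16% for Nefh, 2.97%, 1.90% and 2.71% for Nefl, 3.18%, 2.49% and 2.72% for Map1b and 4.26%, 3.87% and 3.47% for Myo5a, in cerebellum, hippocampus and cortex. Medians over whole lists mix shared sites with sites of a single region, and at the sites listed everywhere the Myo5a medians had the other order, 5.84% in cerebellum and 6.16% in cortex.

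Position along the gene is likewise given as a description. The median site lay 321 nt before the 3′ end in Nefh, 1100 nt in Nefl, 2138 nt in Map1b and 4297 nt in Myo5a, measured along the genome with any intron included, against 1517 nt over all genes. Within 1 kb of the 3′ end lay 17 of 17 Nefh sites, 12 of 30 Nefl sites, 22 of 83 Map1b sites and 16 of 75 Myo5a sites, against 36.5% over all genes. The 1517 nt and the 36.5% cover the 25506 of 25978 sites that lay inside the span of a gene with a unique symbol. The sites also stood close together: 169 of the 205 member sites (82.4%) had a listed neighbour no more than 50 nt away, against 59.3% over all genes. Such a share is tied to the number of sites in a gene, on which these genes were chosen.

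Genes with the most similar profiles were looked up over the 3 regions. By site number, out of 3628 genes, the nearest to Map1b were Paqr8 (69 sites in cerebellum, 58 in hippocampus and 69 in cortex), Slc1a2 (62, 57 and 53) and Frrs1l (61, 50 and 50). A near profile to that of Nefl was Atp2a2 (31, 16 and 15). Nefh was nearest to Zdhhc3 (18, 5 and 9), Etnk1 (18, 6 and 8) and Tmem250-ps (14, 5 and 8), and Myo5a to Frrs1l, Slc1a2 and Caln1 (53, 44 and 47). Likeness here is the Euclidean distance of log2 site numbers, which ran from 0.17 to 0.38 for these pairs.

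By median level at sites listed everywhere, out of 292 genes with 5 or more such sites, the profiles were as follows. Nefh, at 9.54% in cerebellum, 4.48% in hippocampus and 3.33% in cortex, was close to Nsg1 (7.99%, 3.90% and 3.14%) and Atrnl1 (10.2%, 3.68% and 3.97%). Nefl, at 5.61%, 2.23% and 2.88%, was nearest to Dynll2, which encodes a light chain shared by dynein and myosin V (4.88%, 2.51% and 3%), Ghitm and Hspa12a. Map1b, at 4.27%, 2.73% and 2.98%, was nearest to Faim2, the AMPA receptor gene Gria3 and the glycine receptor gene Glrb. Myo5a, at 5.84%, 4.90% and 6.16%, was nearest to Kcnj10, a glial potassium channel gene with 6.53%, 5.40% and 6.31%, and to Ptprz1 and Mmd2. The 3 regions give only 3 points per profile.

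Other genes of the cytoskeleton and its partners were followed from lists of 127 further genes, of which 82 had a site in any region. The lists also hold genes not particular to axons, such as Gfap and Map2. Over the shared sites of all these further genes the median log2 ratio of cerebellum over cortex was -0.04. Of these sites 157 of 327 were higher in cerebellum. The lists as a whole thus stayed near the value over all genes, 0.06. Nefm, the medium chain gene, had 10 sites in cerebellum, 2 in hippocampus and 6 in cortex, and was higher in cerebellum at 6 of 6 sites shared with cortex (means 4.20% and 2.38%). Ina had 27, 20 and 22 sites and was higher at 14 of 21 (6.26% and 5.10%). Gfap, the astrocytic filament gene, had 3, 4 and 2 sites and shared 1 with cortex, which was lower in cerebellum.

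Microtubule-associated protein genes did not follow Map1b as a group. The other 17 with a site were higher in cerebellum at 18 of 40 sites shared with cortex, with a median log2 ratio of -0.09. Map2, which marks dendrites, was lower in cerebellum at 4 of 4 shared sites (means 2.23% in cerebellum and 3.47% in cortex), and so was Mapt, the tau gene, at 4 of 4 (2.40% and 3.05%). Map1a, the closest relative of Map1b, was higher at 5 of 6 with nearly equal means (17.8% and 17.6%), and Map4 at 5 of 8. Dclk1 had 3 sites in cerebellum, 11 in hippocampus and 18 in cortex, and Stmn2, a tubulin-binding stathmin gene, had 5, 14 and 8. Among tubulins, Tuba4a had 14, 18 and 17 sites and was higher in cerebellum at 4 of 12.

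Partners of myosin Va gave mixed values. Calm3, a calmodulin gene whose product is a myosin V light chain, was higher in cerebellum at 3 of 7 sites shared with cortex (3.62% and 4.16%), and Dynll2 at 5 of 6 (4.66% and 3.45%). In this list Myo6 was the one other myosin gene with a site, with 0 in cerebellum, 1 in hippocampus and 2 in cortex. The microtubule motor gene Kif5c had 24, 34 and 33 sites and was lower in cerebellum at 17 of 21 (3.37% and 5.11%), while Trak2 was higher at 5 of 9 and Kif1a and Kif3c at 4 of 8 each.

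Of the membrane skeleton genes, Epb41l1 was higher in cerebellum at 4 of 23 shared sites, Ank2 at 8 of 23, Ank1 at 1 of 11 and Ank3, the ankyrin G gene of the axon initial segment, at 8 of 14. The cytolinker gene Dst was higher at 8 of 9 and Trim2, encoding a ubiquitin ligase that acts on the neurofilament light chain in mice, at 6 of 8, and the phosphatase gene Ppp2ca at 7 of 20. Among growth cone genes Marcks had 5 sites in cerebellum, 17 in hippocampus and 26 in cortex. Of 21 further genes with 5 or more sites shared by cerebellum and cortex and reported here, 12 had a median ratio above 0 and 0 reached that of Nefl or Nefh. These lists were written with earlier results of the data known and received no test.

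**Figure D5:**
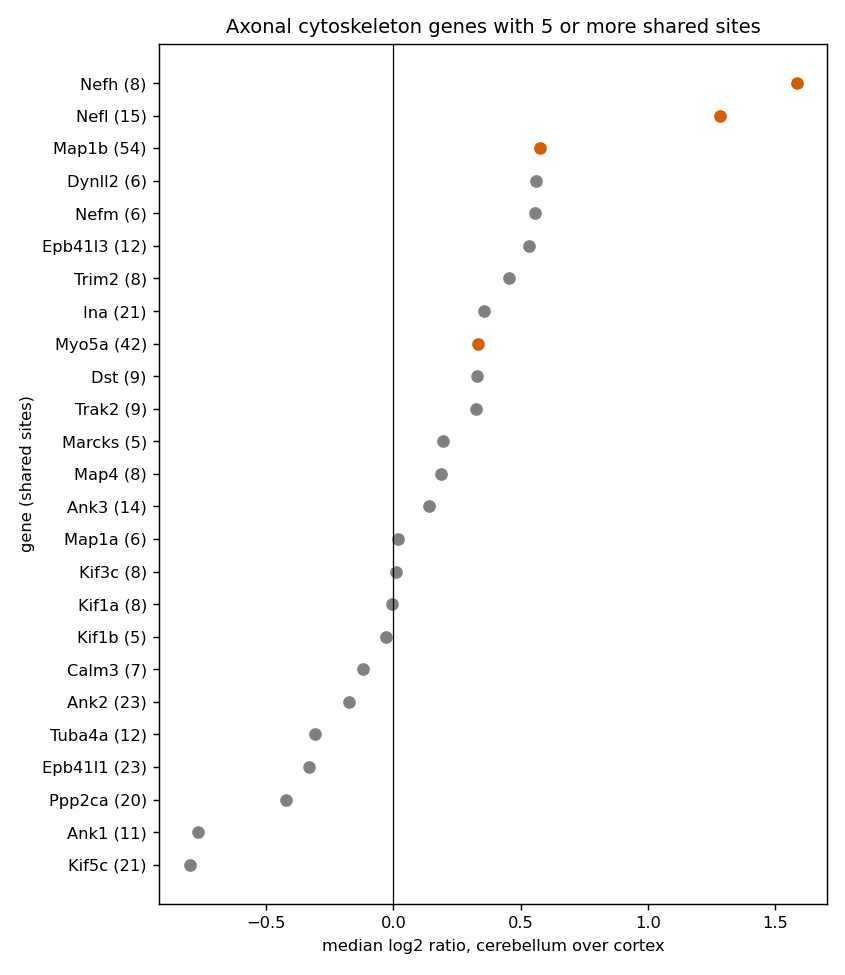
Median log2 ratio of cerebellum over cortex (horizontal axis) for 25 genes of the cytoskeletal lists with 5 or more shared sites. The number of shared sites is in brackets after the name, and not all of the genes are particular to axons. Orange marks Nefh, Nefl, Map1b and Myo5a and grey the others: values run from 1.59 for Nefh to -0.80 for Kif5c.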

How the data were processed

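Edited sites were analysed from 3 lists, 1 per brain region, of 20 bulk poly(A) libraries made from 900 ng total RNA each. STAR 2.7.5 and the build mm10 were used, per the submitters' processing notes. No source used here gives the site caller, its thresholds or how libraries were combined. APOBEC1-YTHmut libraries served as background in calling, per the labels. Each list, as deposited by the authors without a header, has 6 columns, the 5th a fraction between 0 and 1 per site, read here as the share of edited reads and printed as percent. That reading, and that it describes the APOBEC1-YTH libraries combined, are assumptions. The third column was taken as the 1-based position after the check of the base there.

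Sites were shared when chromosome, position and strand were identical. Log2 ratios are first-named over second-named region. Gene spans came from RefSeq GRCm38.p6, in which the 4 symbols matched. Groups of sites were separated by gaps over 200 nt. Similar genes were ranked by Euclidean distance over log2(site number + 1), or over log2 median levels at sites listed in each region; the 3 nearest were named, leaving out predicted genes. Some genes are not reported here. From each list of cytoskeletal genes, up to 6 with the most sites could be named; Mapt and Myo6 fall outside and were chosen after their values were seen. Sites named by rule were the highest per region and those with the largest rise and fall per pair, and further sites were chosen after their values were seen. Members and lists were chosen with earlier results of these data known. No test was made, because each region has 1 pooled value per site and no depth. Functions were tested on simulated data. The tools were pandas 2.3.3, matplotlib 3.10.9, scipy 1.17.1 and numpy 2.4.6 under Python 3.11.15.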

Additional observations from a re-analysis of the deposited data

How the results depend on the processing

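Each value rests on 1 pooled list per region without depth, so no replicate could be left out, no spread between animals is known, and changes were judged by exact 95% binomial intervals that treat sites as independent. No paired analysis was possible because the lists carry no values per library. No member site reached 35%, and removing sites at 35% or more changed nothing for the 4 genes. Restricting the lists to levels of at least 5% left 59 sites in cerebellum, 31 in hippocampus and 36 in cortex, of which 34.3% were in every list; at least 10% left 22, 11 and 11, and 24.0%. Counting a site within 10 nt as shared gave 55.6%. For cerebellum over cortex, dividing levels by the list median gave 72.2% of Map1b sites higher, and at 10% or more the shares were 66.7% for Map1b (3 sites), 50% for Myo5a (4 sites) and 100% for Nefl (1 site, also at 5%). For hippocampus over cortex they were 20.0% for Map1b (10 sites) and 0% for Nefl and Nefh (1 site each) at 5%. At 10% they were 0% for Nefl (1 site) and 75% for Myo5a (4 sites). For cerebellum over hippocampus they were 100% for Map1b at 5% (9 sites) and 10% (3 sites), and 100% for Nefl (1 site at each limit). Myo5a turned to 40.0% (5 sites) at 10%. The cause was not tested beyond the few sites that these limits leave. Dividing by the list median also turned Nefh from 40% to 60% of 5 sites higher in hippocampus than in cortex. In all 51 values, this one included, stayed within these intervals, or within 1.5 times for numbers of sites, while 23 moved outside and 1 reversed. Among the 51 was each value with sites within 10 nt merged. The 51 also include the values without sites at 35% or more, which could not change. Intervals from few sites, such as those of Nefh, are wide, so staying within them says little. Nefh had no site of 10% or more in hippocampus, so its shares there could not be computed.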
